A study of Mus musculus with 4 samples.

Results

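The genes described here are 36 genes of glycolysis, the pentose phosphate pathway and the cellular response to low oxygen, taken by symbol from the 16051 genes of the deposited expression table. Their messenger RNA (mRNA) was measured in differentiated 3T3-L1 cells, a mouse line of the NIH SWISS strain that grows as fibroblast-like preadipocytes and forms adipocytes in culture. Control cells received DMSO, the vehicle, for 48 h per the methods and are called untreated in the sample labels. Treated cells received 100 μM risperidone, an antipsychotic drug, for 48 h. There were 2 libraries for each treatment, made from the pooled RNA of 3 cultures of this single cell line, so the p-values below measure the spread between pooled libraries and not between single cultures. Of the 36 genes, 33 had a mean of at least 1 FPKM (fragments scaled to transcript length and library depth) over the 4 libraries and were tested. Aldoc, Slc16a3 and Epas1 were below that level.

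Glycolysis splits glucose into pyruvate in the cytosol, and lactate dehydrogenase turns pyruvate into lactate, which leaves the cell through monocarboxylate transporters. The pentose phosphate pathway branches off after the first phosphorylation of glucose and supplies NADPH, which fat synthesis consumes, and the sugar of nucleotides. Many of these enzymes are transcribed more strongly under hypoxia-inducible factor (HIF), whose α subunits are hydroxylated by the EGLN prolyl hydroxylases when oxygen is present and are then bound by VHL for degradation.

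The estimated counts summed to between 15883712 and 16374119 per library, and a gene at 0 could still be present at up to 3 counts, or 0.183 to 0.189 CPM (counts scaled to library depth). The 36 genes together took 4.15% and 4.05% of the summed TPM (fragments scaled to length and then to a fixed library total) in the control libraries, against 2.99% and 3.29% in the risperidone libraries. Their share of the estimated counts fell less, from 3.06% and 3.02% to 2.47% and 2.62%. A shift of TPM over all genes is described below. The labelled cell type was checked against its markers. Of 12 adipocyte genes, 8 were below 1 FPKM in every library, among them the defining genes Adipoq (counts of 1 and 0 in control, 1 and 1 in risperidone) and Lep (0 in 3 libraries and 1 in risperidone replicate 2), and the summed level of the 12 was 385 and 438 FPKM in control against 268 and 279 in risperidone. The 9 preadipocyte and fibroblast genes summed to between 2828 and 3085 FPKM, but single genes moved. Of the 9, 4 were higher with risperidone, namely Dlk1 (log2 fold change 1.52), Ly6a (1.20), Thy1 (1.05) and Col1a1 (0.99), 2 were lower, namely Pdgfrb (-0.50) and Col1a2 (-0.16), and 3 did not pass. In the same test 32.1% of all tested genes were higher and 32.2% lower, which is the background for these and the adipocyte genes. The call for Ly6a was lost without risperidone replicate 2 (0.53, adjusted p = 0.182). Of the adipocyte genes, Fabp4 (-1.09), Lipe (-1.12) and Lpl (-0.24) were lower and Pparg, the only other of them that was tested, was at 0.12 and did not pass (adjusted p = 0.194). The part of these markers in the results below was not tested. The labels' protocol mentions retina, but the 4 retina genes in the table were all below 1 FPKM in every library. Risperidone replicate 2 stood apart from the other 3 libraries. It had 14657 genes above 0 against 13810 to 13962, and 20 kidney genes summed to 6252 counts in it against 651 to 686 in the others. Most of the counts in the others were of Spp1, with 519 and 539 in control, 598 in risperidone replicate 1 and 759 in risperidone replicate 2. The 5 endothelial genes, all below 1 FPKM, summed to 43 counts in it against 11 to 14, and the 7 macrophage and blood genes in the table summed to 55 and 73 counts in control and 123 and 151 in risperidone. For that reason results of the 36 genes are also given without risperidone replicate 2 wherever a call changed. For the other pathway genes only some such changes are given.

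After risperidone, 17 of the 33 tested genes were lower and 8 were higher in edgeR (quasi-likelihood F-test, Benjamini-Hochberg adjustment over all genes, threshold 0.05), and 8 did not pass. Of all 10243 genes tested, 32.2% were lower and 32.1% higher, so the called genes of the whole table were split almost evenly. The median log2 fold change (risperidone over control) was -0.17 for the 33 genes and 0.00 for all genes. Fewer genes moved by a log2 fold change of at least 1: Ldha and Ankrd37 fell that far, and Ndrg1 rose that far, against 3.91% of all tested genes lower and 2.61% higher by that size. The normalised CPM of the 2 treatments did not overlap for 19 genes that were lower and 10 that were higher with risperidone, where 41.7% and 41.2% of all tested genes did the same (82.9% in either direction). In a bulk sample, fewer cells of a type and less RNA per cell cannot be told apart.

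**Figure D1:**
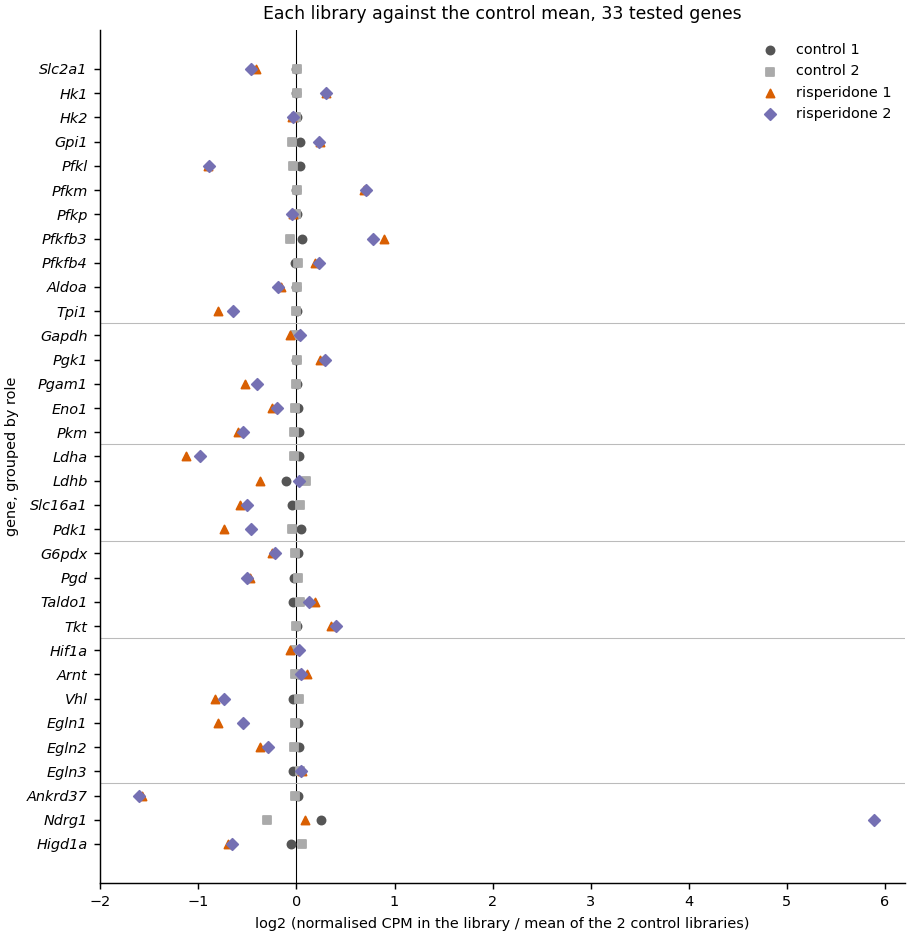
Level of each of the 33 tested genes in each of the 4 libraries (points), as the log2 ratio of its TMM-normalised CPM to the mean of the 2 control libraries, with genes in the order of their roles and grey lines between roles. The risperidone libraries lie close together for most genes, with Ldha and Ankrd37 farthest to the left, and Ndrg1 is far to the right in risperidone replicate 2 alone.

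The split of higher and lower calls depended on the scaling. On log2(TPM + 1) with limma, where the median of all genes was -0.22, 3 of the 33 genes were higher and 24 lower, against 15.0% and 51.7% of all tested genes. The median of the 33 genes on that scale was -0.42, which includes the shift. FPKM values, which were not rescaled by TMM (the trimmed mean normalisation used in the test), carry a smaller shift of the same sign, with a median of -0.08 over all genes on log2(FPKM + 1), so a gene with equal normalised CPM in both treatments shows a slightly lower FPKM with risperidone.

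Glucose enters these cells mainly through facilitative transporters, of which Slc2a1 encodes GLUT1, the basal one. Slc2a1 fell from 141 ± 0.608 to 97.5 ± 2.01 FPKM (SD, n = 2; log2 fold change -0.44, SE 0.046, adjusted p = 1.19e-05). Among the hexokinases, which trap glucose by phosphorylation, Hk1 rose from 58.3 ± 0.382 to 68.1 ± 0.177 FPKM (0.30, SE 0.044), while Hk2 had a log2 fold change of -0.04 with a 95% interval of -0.14 to 0.06. Gpi1, which isomerises the product, rose by a log2 fold change of 0.24 (SE 0.050). The call for Hk1 did not hold on log2(TPM + 1), where its value was 0.08, and Gpi1 was at -0.0027 on that scale.

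Phosphofructokinase, the main control point of glycolysis, moved in opposite directions by isoenzyme. Pfkl, the liver-type subunit, had 9994 and 9226 counts in control and 4848 and 4834 with risperidone, which is 188 and 178 FPKM against 91.5 and 93.1. Both control libraries were far above both risperidone libraries, and the log2 fold change was -0.89 (SE 0.049, adjusted p = 1.34e-07). Pfkm, the muscle-type subunit, went the other way, with 1696 and 1667 counts in control and 2549 and 2565 with risperidone, or 37.6 and 38.3 FPKM against 57.3 and 58.2. The risperidone libraries of Pfkm were again clear of the controls (0.70, SE 0.046, adjusted p = 3.68e-07). Pfkp, the platelet-type subunit, was at 46.5 ± 0.028 and 44.5 ± 0.502 FPKM, and its change on the log2 scale was -0.04 (interval -0.14 to 0.06). The PFKFB bifunctional enzymes set the level of its activator fructose 2,6-bisphosphate, and Pfkfb3 was detected at 244 and 218 counts in control and at 402 and 371 with risperidone (3.29 and 3.15 FPKM against 5.61 and 5.23). Pfkfb3 thus rose in both risperidone libraries (0.84, SE 0.093, adjusted p = 1.76e-05), and Pfkfb4, at 2.70 ± 0.042 and 2.90 ± 0.049 FPKM, did not pass the test (0.21, interval -0.09 to 0.51).

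Aldolase and triose phosphate isomerase split the hexose and interconvert its fragments. Aldoa, the most abundant aldolase at 1890 ± 7.49 FPKM in control, fell by 0.17 on the log2 scale (SE 0.047, adjusted p = 0.00746). This call was lost without either control library, while the log2 fold change stayed at -0.18 without replicate 1 and -0.17 without replicate 2. Tpi1 had 19108 and 18463 counts in control and 10167 and 11216 with risperidone, or 796 and 792 FPKM against 426 and 476. The treatments did not overlap, risperidone replicate 1 being the lowest library, and the log2 fold change was -0.72 (SE 0.057, adjusted p = 1.49e-06). Over the 11 tested genes of glucose entry and upper glycolysis, 4 were higher, 4 lower and 3 not called, close to the 32.1% and 32.2% of all tested genes, with a median of -0.04.

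The lower steps yield ATP. Gapdh was the most abundant transcript of the set, at 9960 ± 144 FPKM in control and 9197 ± 478 with risperidone, and its normalised level had a log2 fold change of -0.01 (interval -0.12 to 0.10, adjusted p = 0.850). Of the 5 genes of these steps 1 was higher, 3 lower and 1 not called, against 32.1% higher and 32.2% lower of all tested genes. Pgk1, the kinase that makes the first ATP of the payoff phase, was the one that rose (1417 ± 13.3 to 1592 ± 48.5 FPKM, log2 fold change 0.27, SE 0.048, adjusted p = 0.000575). On log2(TPM + 1) with limma the value of Pgk1 was 0.02 with an adjusted p of 0.703. Pgam1, the phosphoglycerate mutase, fell from 989 ± 0.969 to 670.5 ± 41.2 FPKM (-0.46, SE 0.053). Eno1, the main enolase, fell by 0.22 on the log2 scale (SE 0.048), and Pkm, pyruvate kinase, fell from 1267 ± 31.0 to 796 ± 20.7 FPKM (-0.57, SE 0.049). Gapdh, Eno1, Gpi1 and Pfkp were the 4 members whose estimated counts were not whole numbers in the table, as estimated counts are where reads match more than 1 place, and their values are less certain for that reason.

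Of the 4 tested genes of the lactate branch, with Pdk1 counted among them, 3 were lower, 0 higher and 1 not called. The shares over all tested genes were 32.2% lower and 32.1% higher. Ldha, the subunit that favours lactate formation, had 30835 and 29054 counts in control and 12932 and 14082 with risperidone, or 1265 and 1227 FPKM against 533 and 589. Both risperidone libraries were below both controls by a wide margin, and the log2 fold change was -1.05 (SE 0.056, adjusted p = 1.15e-07). Ldhb, the subunit of oxidative tissues, was at 461 and 515 counts in control and 356 and 463 with risperidone. These ranges overlapped, and its log2 fold change was -0.16 (interval -0.41 to 0.09, adjusted p = 0.231), which became -0.37 with an adjusted p of 0.00567 without risperidone replicate 2 (background 32.7% lower in that fit). Slc16a1, the lactate transporter MCT1, fell from 59.2 ± 2.52 to 38.2 ± 1.65 FPKM (-0.54, SE 0.051). Slc16a3, the export transporter MCT4, was barely detected, with 11 and 11 counts in control and 6 and 8 with risperidone. Pdk1, a kinase that keeps pyruvate out of the mitochondrial dehydrogenase and is a known HIF target, fell from 62.1 ± 2.14 to 39.7 ± 5.36 FPKM (-0.59, SE 0.076, adjusted p = 4.99e-05).

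All 4 pentose phosphate genes passed the test, 2 in each direction, where 64.3% of all tested genes passed in either direction. The oxidative enzymes G6pdx and Pgd, which produce NADPH, were lower: G6pdx, the entry enzyme, fell from 62.7 ± 1.004 to 49.9 ± 0.912 FPKM (-0.23, SE 0.046, adjusted p = 0.00106), and Pgd fell from 66.5 ± 2.34 to 44.0 ± 1.17 FPKM (-0.49, SE 0.048, adjusted p = 7.38e-06). Tkt and Taldo1, non-oxidative enzymes which shuffle carbons back to glycolysis, were higher, Tkt with a log2 fold change of 0.38 (SE 0.045, adjusted p = 3.18e-05) and Taldo1 with 0.16 (SE 0.056, adjusted p = 0.0286). Taldo1 was the least certain call of the set, since its FPKM values overlapped (75.1 and 79.0 in control, 81.7 and 78.6 with risperidone), DESeq2 gave it an adjusted p of 0.0983, and on log2(TPM + 1) its value was -0.09. The other genes of the pathway did not divide this way: the oxidative genes Pgls (0.44, SE 0.074) and H6pd (0.25, SE 0.046) were higher, and the non-oxidative gene Rpia was lower (-0.85, SE 0.129).

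**Figure D2:**
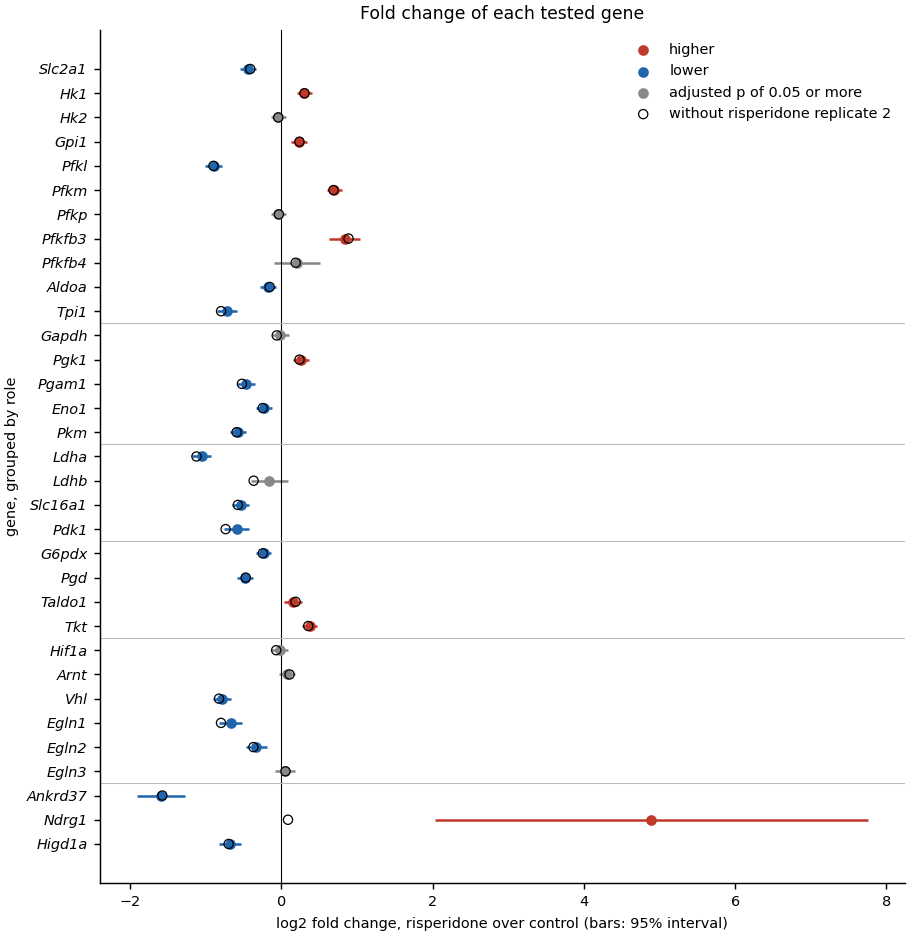
Log2 fold change (risperidone over control) of each tested gene with its 95% interval (filled points and bars), coloured by call, and the value without risperidone replicate 2 (open circles), in the same order of roles. Ankrd37 at -1.59 and Ldha at -1.05 are the lowest, and only Ndrg1 moves far when the library is left out, from 4.89 to 0.09.

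Neither HIF subunit that was tested passed the test. Hif1a, the oxygen-regulated α subunit, had 156 and 154 FPKM in control and 137 and 147 with risperidone, and its log2 fold change was -0.02 (interval -0.13 to 0.09). Its partner Arnt, which is not regulated by oxygen, had 43.7 and 43.3 FPKM in control and 43.6 and 41.7 with risperidone (0.08, interval -0.03 to 0.18). The values of Hif1a and Arnt changed sign with the normalisation, Hif1a to 0.08 once trends with length and GC content were removed and Arnt to -0.17 on log2(TPM + 1). Calls also appeared there: Arnt was called higher with the length and GC offsets (0.16, adjusted p = 0.00537) and lower on log2(TPM + 1) (adjusted p = 0.0179), and Hif1a was called lower on log2(TPM + 1) (-0.27, adjusted p = 0.00303), where the median of all genes was -0.22. Epas1, which encodes the second α subunit HIF-2α, was low, at 51 and 53 counts in control and 14 and 36 with risperidone. Epas1 was at 0.620 ± 0.028 FPKM in control and 0.295 ± 0.191 with risperidone, so it was read in a fit without a filter, where the log2 fold change was -0.96 (adjusted p = 0.156). Without risperidone replicate 2 as well, it was -1.77 (adjusted p = 0.00727, background 19.0% lower).

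Of the oxygen-sensing genes, Vhl, Egln1 and Egln2 fell. Vhl, the substrate receptor that marks hydroxylated HIF-α for degradation, had 2101 and 2132 counts in control and 1124 and 1182 with risperidone, or 49.5 and 51.7 FPKM against 26.6 and 28.4. The 2 treatments were well apart (-0.78, SE 0.053, adjusted p = 5.05e-07). Egln1, the main prolyl hydroxylase of normal oxygen, had 81.0 and 79.5 FPKM in control and 43.0 and 51.5 with risperidone (-0.67, SE 0.069, adjusted p = 1.01e-05). Egln2, a second hydroxylase, had 17.9 and 17.1 FPKM in control and 12.5 and 13.3 with risperidone (-0.33, SE 0.063). Neither gene had overlapping treatments, and in both risperidone replicate 1 was the lower library. Egln3, a hydroxylase that is itself induced by hypoxia, had 25.8 and 27.0 FPKM in control and 25.6 and 25.7 with risperidone and did not pass the test (0.05, interval -0.08 to 0.19). Of the 6 tested factors and sensors, 3 were lower and 3 were not called, against 32.2% of all tested genes lower.

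Of the 3 hypoxia-inducible targets, Ankrd37 and Higd1a fell in both risperidone libraries, against 32.2% of all tested genes called lower. Ankrd37, an ankyrin repeat protein known as a HIF target (GRCm38.p6, chromosome 8, 45996908 to 46000414), had 220 and 211 counts in control and 68 and 66 with risperidone, or 17.3 and 16.9 FPKM against 5.31 in both libraries. This was the largest fall of the set, with the 2 treatments far apart (-1.59, SE 0.145, adjusted p = 4.16e-06). Higd1a, a mitochondrial protein that binds respiratory complexes, had 30.8 and 33.5 FPKM in control and 18.4 and 19.0 with risperidone, again with no overlap (-0.68, SE 0.065, adjusted p = 5.89e-06). In the annotation 26.2% of the exon bases of Ankrd37, 22.5% of those of Higd1a and 19.2% of those of Ndrg1 are shared with genes on the opposite strand. The share is 17.4% for Pfkp, 12.3% for Gpi1 and 6.06% for Hif1a, and at most 3.22% for any other member. Whether counting used strand is not given in the sources used here, so reads from these overlaps could not be assigned.

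Ndrg1, a stress-responsive gene expressed in many epithelia (chromosome 15, 66929318 to 66969641), had 12 and 8 counts in control, 10 in risperidone replicate 1 and 551 in risperidone replicate 2. Its rise was thus in a single library, and risperidone replicate 1 lay between the controls. The fitted log2 fold change was 4.89 (SE 1.30, adjusted p = 0.00666), and without risperidone replicate 2 it was 0.09 (adjusted p = 0.911). Genes with this pattern, at least 1.5 times the highest other library in risperidone replicate 2 and not called higher without it, made up 0.42% of the tested genes and 10.6% of all genes in the table. Among the 36 genes only Ndrg1 and Aldoc met that rule, and Aldoc, the brain-type aldolase, did so on counts of 0 and 1 in control and 0 and 3 with risperidone, at the limit that a count of 0 allows. Of the 20 kidney genes, 19 met the same rule, all but Spp1. The androgen-regulated proximal tubule gene Kap, for example, had 13 and 8 counts in control, 16 in risperidone replicate 1 and 1048 in risperidone replicate 2. The summed level of the kidney genes was 28.7 and 29.0 FPKM in control, 31.8 in risperidone replicate 1 and 299.8 in risperidone replicate 2. Of these sums Spp1 gave 24.7, 26.3, 28.4 and 36.7 FPKM, in the same order. The part of the kidney genes in the value of Ndrg1 was not tested.

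Without risperidone replicate 2, 7 of the 33 genes were higher and 18 lower (background 32.3% and 32.7%). The 7 were those higher with all 4 libraries in the fit, other than Ndrg1, namely Hk1, Gpi1, Pfkm, Pfkfb3, Pgk1, Taldo1 and Tkt, and the 18 were the 17 lower genes and Ldhb. Among the 17 lower genes, risperidone replicate 2 was above replicate 1 in normalised CPM for 13, and among all 3303 lower genes it was above for 68.4%.

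HIF binds DNA at the core sequences ACGTG and GCGTG, and the promoters of the genes were searched for both on either strand in the 250 bases before each RefSeq start (RefSeq annotation on GRCm38.p6). Of the 36 genes, 34 had an entry, with 49 promoters in all, and Epas1 and Ndrg1 had none. ACGTG was present in 38.8% of the 49 promoters, in 22.5% of the promoters of tested genes and in 16.6% of all promoters. GCGTG was present in 59.2%, 46.2% and 28.2% of them. The share with either core was 76.9% for the 26 promoters of genes that were lower, 75.0% for the 12 of genes that were higher and 100% for the 8 of genes that were not called, against 57.7% of the promoters of tested genes and 38.6% of all promoters. Shown here are the promoters of the largest fall (Ankrd37, chr8:45999851-46000100, minus strand), of the abundant gene that fell most (Ldha, chr7:46845554-46845803, plus strand, the upstream of its 2 promoters), of a gene that fell with neither core (Tpi1, chr6:124814159-124814408, minus strand) and of a gene that rose with the core (Pgk1, chrX:106186850-106187099, plus strand). The last 3 were chosen after their values were seen. Each is written 5′ to 3′ along its gene, and capitals mark ACGTG or GCGTG on either strand, so that their reverse complements CACGT and CACGC are also in capitals and overlapping matches run together.
Ankrd37: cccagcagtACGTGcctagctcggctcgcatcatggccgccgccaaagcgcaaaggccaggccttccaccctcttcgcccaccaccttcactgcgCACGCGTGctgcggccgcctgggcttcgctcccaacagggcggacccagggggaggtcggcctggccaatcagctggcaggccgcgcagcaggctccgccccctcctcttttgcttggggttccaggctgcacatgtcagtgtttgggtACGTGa
Ldha: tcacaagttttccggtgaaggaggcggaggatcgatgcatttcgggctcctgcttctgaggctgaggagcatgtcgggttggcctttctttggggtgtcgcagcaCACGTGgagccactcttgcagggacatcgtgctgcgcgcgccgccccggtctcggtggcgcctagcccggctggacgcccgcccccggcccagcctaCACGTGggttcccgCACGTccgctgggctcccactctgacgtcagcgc
Tpi1: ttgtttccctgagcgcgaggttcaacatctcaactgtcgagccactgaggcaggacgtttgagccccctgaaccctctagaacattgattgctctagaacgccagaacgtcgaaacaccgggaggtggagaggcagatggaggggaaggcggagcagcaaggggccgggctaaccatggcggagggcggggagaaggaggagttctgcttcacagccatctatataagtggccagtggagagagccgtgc
Pgk1: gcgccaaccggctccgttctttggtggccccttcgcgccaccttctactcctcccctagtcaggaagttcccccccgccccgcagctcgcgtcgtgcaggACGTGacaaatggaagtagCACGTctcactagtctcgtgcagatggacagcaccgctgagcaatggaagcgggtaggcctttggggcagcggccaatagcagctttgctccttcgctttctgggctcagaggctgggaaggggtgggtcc
Ankrd37 held ACGTG at 2 places and GCGTG at 1, and Ldha held ACGTG at 3. Tpi1 held neither core in these 250 bases and fell by 0.72 on the log2 scale, and Pgk1 held ACGTG at 2 places and rose by 0.27. A match of letters is not a binding site, and the part of HIF in these changes was not tested.

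The isoenzyme make-up of several steps shifted with these changes. Pfkl gave 69.1% and 67.7% of the summed phosphofructokinase FPKM in control and 47.2% and 47.6% with risperidone, and Pfkm rose from 13.8% and 14.6% to 29.6% and 29.8%. The sum of the 3 subunits was 272 and 263 FPKM in control and 194 and 195 with risperidone, so the sum was lower in both risperidone libraries. Pfkp, which did not pass the test, took 17.1% and 17.7% of the sum in control and 23.2% and 22.6% with risperidone. For lactate dehydrogenase, the sum fell from 1289 and 1255 to 552 and 613 FPKM while Ldha kept most of it, at 98.1% and 97.8% in control and 96.6% and 96.0% with risperidone. For the prolyl hydroxylases, Egln1 gave 65.0% and 64.3% in control and 53.1% and 56.9% with risperidone, and Egln3, which did not pass the test, went from 20.7% and 21.9% to 31.5% and 28.4%. For the pyruvate dehydrogenase kinases, Pdk1 went from 26.9% and 27.1% to 14.5% and 17.6%, and Pdk4, the fasting-induced form and not a member of the set, from 55.2% and 54.6% to 68.5% and 64.7%. The kinase sum was 237 and 224 FPKM in control and 247 in both risperidone libraries, but in TPM the treatments overlapped, at 490 and 459 in control and 453 and 471 with risperidone. Hexokinase moved less, with Hk1 at 68.1% and 68.3% in control and 73.3% and 73.1% with risperidone. In all 5 enzymes the shares of the named isoenzymes did not overlap between treatments, but neither did the normalised CPM of 82.9% of all tested genes. These shares are descriptions with no test.

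**Figure D3:**
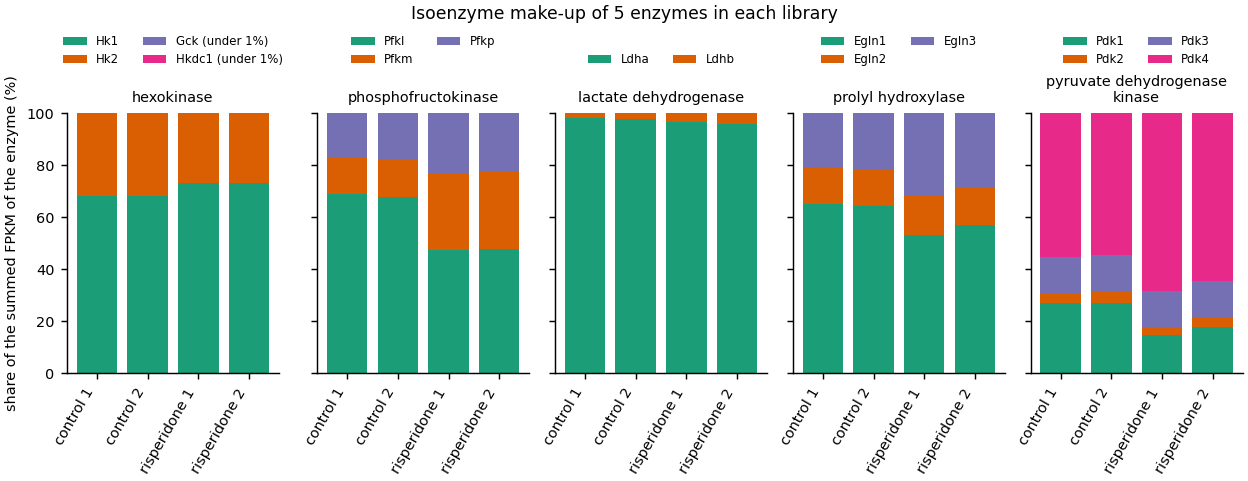
Share (%) of the summed FPKM of 5 enzymes that each isoenzyme gene took in each of the 4 libraries, as stacked bars. The largest shift is in phosphofructokinase, where Pfkl drops from 69.1% and 67.7% to 47.2% and 47.6%, and the bars of the 2 libraries of a treatment are close to each other.

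The other genes of these pathways did not all follow the 36. Of 22 other tested glycolysis genes, 13 were higher, 3 lower and 6 not called (32.1% and 32.2% of all tested genes were higher and lower), with a median log2 fold change of 0.25. Without the genes that were higher in risperidone replicate 2 alone it was 11 higher and 3 lower of 20, with a median of 0.21. The largest changes that did not overlap were those of Adpgk, an ADP-dependent glucokinase (25.7 ± 0.580 to 65.0 ± 1.73 FPKM, log2 fold change 1.43, SE 0.051), of Eno3, the muscle enolase (0.91, SE 0.179), and of Pfkfb2 (-0.62, SE 0.138). Of 8 other pentose phosphate genes, 5 were higher, 2 lower and 1 not called. Without risperidone replicate 2, Dera, a lower gene, went from -0.39 to -0.22, and Rpe, the gene not called, from 0.17 to 0.23. Prps2 (0.68, SE 0.060) and Prps1 (0.47, SE 0.060), which make phosphoribosyl pyrophosphate for nucleotides, were higher, and Rpia, the ribose phosphate isomerase already named, had the largest fall.

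Of 8 other regulators of HIF, 2 were higher and 6 lower, against the same 32.1% and 32.2% of all tested genes. The lower ones included the coactivators Crebbp (-0.67, SE 0.070) and Ep300 (-0.56, SE 0.058) and Cited2 (-0.53, SE 0.059), which competes with HIF for them. Elob (-0.18) and Rbx1 (-0.17) were among the lower ones too, and both were at -0.12 without risperidone replicate 2. Of 26 other HIF targets, 6 were higher, 14 lower and 6 not called (background 32.1% and 32.2%), with a median of -0.19. Ddit4, an inhibitor of mTOR signalling induced by stress, fell from 96.9 ± 1.51 to 23.8 ± 1.90 FPKM (-1.93, SE 0.063), and Tfrc, the transferrin receptor, fell from 16.9 ± 0.827 to 5.69 ± 0.976 FPKM (-1.47, SE 0.097). Over the 64 other genes of these lists 26 were higher and 25 lower (background 32.1% and 32.2%), with a median of 0.01. Without the genes higher in risperidone replicate 2 alone, 24 were higher and 25 lower, with a median of -0.01. On log2(TPM + 1) 14 were higher and 30 lower, against 15.0% and 51.7% of all tested genes.

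**Figure D4:**
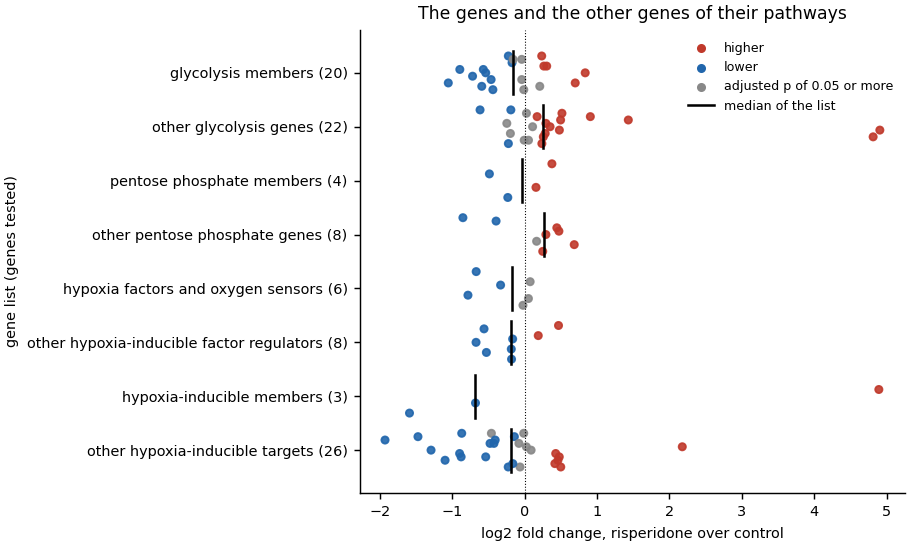
Log2 fold change (risperidone over control) of every tested gene (points, coloured by call), in rows for the described genes and for the other genes of the same pathways, with the number tested in brackets and the median of each list as a black line. The 22 other glycolysis genes have a median of 0.25, to the right of the glycolysis genes described, and the 2 points near 5 in that row are genes higher in risperidone replicate 2 alone.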

How the data were processed

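Messenger RNA of 2 control and 2 risperidone libraries was sequenced on MGISEQ-2000. The authors removed reads with adaptors, unknown bases or low quality and deposited, for each of 16051 genes and each library, an estimated count, an FPKM and a TPM, all used here. Their averages were not used. The submitters' processing notes name Bowtie2, RSEM, DESeq2 and GRCm38.p6 with no version. Of the deposited counts, 8.32% to 8.77% per library were not whole, and all were rounded. Depth was 15883712 to 16374119 counts per library, and limits given for a count of 0 cover counting error only.

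The 10243 genes that averaged at least 1 FPKM were compared with edgeR 4.0.16 in R 4.3.3 (TMM, quasi-likelihood F-test, two-sided, no covariate, Benjamini-Hochberg over all tested genes, adjusted p under 0.05). Tables and promoter searches were made with Python 3.11.15. Alternatives were no filter or at least 5 FPKM, RLE size factors, library size only, DESeq2 1.42.0, limma 3.58.1 on log2(FPKM + 1), log2(FPKM + 0.1) and log2(TPM + 1), offsets for gene length and GC content, the replicate number as a term and leaving out each library. The fits were tested on simulated data.

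All 36 genes are named. Values in every library are given for the 8 largest called changes, the hypoxia genes and any gene higher in risperidone replicate 2 alone, and from each other pathway list up to 3 of the largest called changes without overlap are named. Some genes that these rules would name are not reported here. Pdk4, Pgls, H6pd, Elob, Rbx1, Dera, Rpe, Nos2, Cd68 and the marker genes given by name were named after their values were seen. The per-library values of Ldhb, Slc16a3 and Taldo1 were also chosen then. The 36 genes and the lists were chosen with earlier results of these data known. Lists were written from general knowledge and got no set test.

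The replicate numbers were not shown to pair the libraries. The correlation of replicate 1 minus 2 between treatments was -0.105 over 10243 genes, where crossed numbers are possible, and both pairings were tried.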

Additional observations from a re-analysis of the deposited data

How the results depend on the processing

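With 2 libraries per treatment, the counts of called genes rest on a small estimate of spread. Leaving out each library in turn gave 7 genes higher every time and 16 to 18 lower, against 8 and 17, and 23 to 25 of the other pathway genes higher and 17 to 26 lower, against 26 and 25. RLE size factors and DESeq2 changed no direction among the 33 genes. The call for Taldo1 was lost with DESeq2 (adjusted p = 0.0983), without a filter, with library size only, with the offsets, in every limma setting and without each library other than risperidone replicate 2, and the call for Ndrg1 was lost without that library, without a filter (adjusted p = 0.0951) and in every limma setting. On log2(TPM + 1) 3 of the 33 genes were higher and 24 lower, and 14 of the other pathway genes were higher and 30 lower. Hk2, Pfkp, Gapdh, Ldhb, Hif1a, Arnt and Egln3 were called lower there and not in the test reported. Hk2 and Pfkp were also called lower with library size only, Ldhb was called lower without risperidone replicate 2, and Arnt was called higher with the length and GC offsets (adjusted p = 0.00537). The count of genes higher in risperidone replicate 2 alone was 2 of 36, 1 among tested genes and 0 among those averaging at least 5 FPKM.

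The direction changed for these genes, of which Gpi1 and Taldo1 had been called and the others had not. On log2(TPM + 1) the log2 fold change was -0.0027 for Gpi1, -0.035 for Pfkfb4, -0.085 for Taldo1, -0.17 for Arnt and -0.18 for Egln3. With length and GC offsets it was 0.056 for Hk2, 0.0025 for Pfkp and 0.078 for Hif1a. Leaving out each library in turn gave -0.060 to 0.036 for Gapdh (0.0055 without control replicate 1), -0.37 to 0.023 for Ldhb and -0.068 to 0.021 for Hif1a, the upper ends being without risperidone replicate 1. With library size only it was -0.017 for Arnt and -0.041 for Egln3, on log2(FPKM + 1) it was -0.027 and -0.042, and on log2(FPKM + 0.1) it was -0.027 and -0.043. The cause was not tested.

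With the replicate block 8 genes were higher and 17 lower, and with the crossed replicate block, added after seeing the data along with library size only, also 8 and 17. Neither block changed a call among the 33 genes. Over all genes 3292 were higher and 3321 lower with the block, and 3474 and 3519 with the crossed pairing.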

Other observations

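Nos2, the inducible nitric oxide synthase and a HIF target below the filter of 1 FPKM, had 91 and 88 counts in control and 2 and 5 with risperidone. It was named after its values were seen. In edgeR's fit without a filter the log2 fold change was -4.54 (adjusted p = 0.000766), where 37.6% of all genes were called in either direction, and neither control library came near the risperidone libraries.

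Cd68, a lysosomal protein of macrophages that other cells also express, was higher in both risperidone libraries (48 and 62 counts in control, 115 and 120 with risperidone; log2 fold change 1.19, SE 0.194, adjusted p = 0.000286 in edgeR's test), and it makes up most of the macrophage and blood counts.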
